A study of Mus musculus with 24 samples.

Results

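The 35 genes described here mark the endothelial cells that line brain vessels, or carry out the work of the blood-brain barrier. They were taken by name from the 55416 rows of the deposited gene table, and all 35 had enough counts in the cerebellum to be tested. RNA was measured by sequencing of polyadenylated transcripts in 24 C57BL/6J mouse pups, 12 Ethanol and 12 Control, and the series asked how the first days of ethanol exposure change the neonatal cerebellum in a model of fetal alcohol spectrum disorders. Ethanol pups were gavaged into the stomach with ethanol, 4 g/kg each day, carried in intralipid (20%), a fat emulsion, on P4 alone or on P4 and P5, where P0 is the day of birth. Control pups received the same emulsion with water in place of the ethanol, so that gavage and intralipid are shared by both groups. Brains were taken a day after the last dose, on P5 or P6, after perfusion with saline. The methods give the tissue as cerebellum, and the labels give it as brain, with the treatment of each animal. They do not say how old each pup was, its sex or its litter, so every comparison below pools both ages and both sexes.

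Endothelial cells of the brain form a sealed wall. Tight junctions built around claudin-5 close the gaps between cells, transport across cells is held low, and carriers bring in glucose and chosen lipids while efflux pumps send other compounds back to the blood. In the first postnatal days the vessels of the mouse cerebellum are still sprouting: vascular endothelial growth factor (VEGF) receptors drive the tips, angiopoietin and apelin signals guide the growth and maturation of the new vessels, and Wnt signals from neural cells switch on barrier genes.

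Levels are given in CPM, counts per 1000000 counts of the library, on library sizes scaled with TMM factors, and differences are log2 fold changes of Ethanol against Control from edgeR's quasi-likelihood test, with Benjamini-Hochberg adjusted p-values over the 17736 genes tested and a threshold of 0.05. Library totals were between 29039888 and 38696615 counts in the 12 Control animals and between 26982564 and 38804942 in the 12 Ethanol animals. The tissue held endothelial RNA in every library: none of the 35 genes was at 0 in any animal, and their summed level was between 1042 and 1185 CPM in Control animals and between 974 and 1149 CPM in Ethanol animals. The animal numbers fall into 6 runs of 4 neighbouring numbers, each with 2 Ethanol and 2 Control animals. The methods state that 6 litters were sequenced, each giving a male and a female pup per treatment. A run has the same number of animals per treatment, but the labels give no sex and do not say that a run is a litter. The Ethanol animals X4568 and X4569, both of the first run, stood apart over these genes. In 8 of the 35 genes both lay below the other 10 Ethanol animals, and in 3 both lay above, against 3.28% and 3.02% of all genes tested. X4758 and X4760, the Ethanol animals of the fifth run, both lay above the other 10 in 8 genes and below them in 0, against 2.19% and 1.70% of all genes. Results that rest on X4568 and X4569 are given with and without them. In 4 libraries, 2 of each group, transthyretin (Ttr), the main transcript of the choroid plexus, was nearly absent (1.15 to 3.57 CPM, against 322 to 5049 CPM in the others). X4568 was among them.

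**Figure D1:**
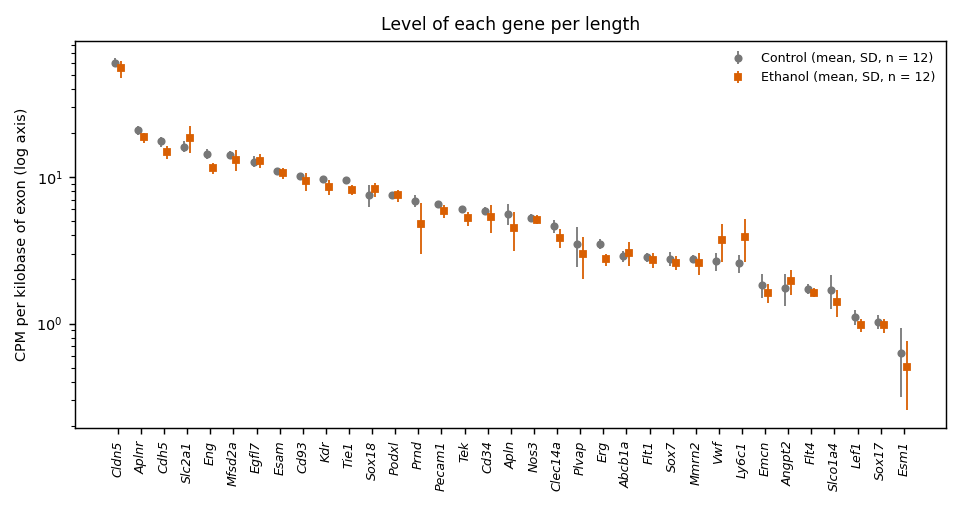
Mean level of each of the 35 genes in CPM per kilobase of merged exons (log axis), with the SD over 12 animals, for Control (grey circles) and Ethanol (orange squares). Claudin-5 (Cldn5) stands highest, at 60.4 in Control animals, and Esm1 lowest, at 0.626.

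Per kilobase of merged exons (GENCODE M21 gene models), the junction protein Cldn5 had the highest level in Control animals, 60.4 ± 4.09 CPM per kilobase (SD, n = 12). The apelin receptor Aplnr followed at 20.8 ± 1.58, the VE-cadherin gene Cdh5 at 17.5 ± 1.38, the glucose carrier Slc2a1 at 16.1 ± 1.4 and endoglin (Eng) at 14.4 ± 1.05. The means of Cdh5 and Slc2a1 lay within an SD of each other. Lef1, Sox17 and the tip-cell product Esm1 stood at the bottom, at 1.11, 1.03 and 0.626 CPM per kilobase. Slc2a1 and the nuclear factor Lef1 are also made by other cells of the cerebellum, so part of their level may come from those.

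Among the genes lower in Ethanol animals, Eng, Tek, Clec14a, Kdr and Tie1 each have a single start in the table of promoters used. Stretches of reference sequence are shown for Eng and Tek as 2 examples. They are the 250 bases before the transcription start in the RefSeq promoter table for GRCm38.p6, an older build than the GRCm39 of the counts. Capitals mark the letters CGGAAG or AGGAAG, the core to which ETS factors such as Erg bind, or AACAAT, the core bound by SOX factors, on either strand.
Eng, chr2:32646345-32646594, plus strand: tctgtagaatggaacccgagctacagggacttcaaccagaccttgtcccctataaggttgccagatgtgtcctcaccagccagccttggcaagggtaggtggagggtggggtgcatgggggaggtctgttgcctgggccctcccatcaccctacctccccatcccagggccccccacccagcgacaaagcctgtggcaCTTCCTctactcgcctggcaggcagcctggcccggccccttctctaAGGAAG
Tek, chr4:94739039-94739288, plus strand: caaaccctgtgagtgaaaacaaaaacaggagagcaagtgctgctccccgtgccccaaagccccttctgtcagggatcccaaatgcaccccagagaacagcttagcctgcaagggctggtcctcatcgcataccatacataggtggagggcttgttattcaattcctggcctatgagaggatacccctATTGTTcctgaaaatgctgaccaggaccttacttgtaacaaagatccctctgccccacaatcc
The Eng stretch held 2 of the ETS letter strings, CTTCCT being AGGAAG read on the other strand, and 0 of the SOX string. The Tek stretch held 1 SOX string, ATTGTT, and 0 ETS strings. The strings do not overlap each other. The stretches not shown held 0 ETS strings in Clec14a, 0 in Kdr and 2 in Tie1, and 0 SOX strings in each. Of 32851 promoters of the same length, 39.2% held an ETS string and 9.42% the SOX string. The table held 30 promoters of 21 of the 35 genes, of which 43.3% held an ETS string and 13.3% the SOX string, close to the share over all promoters. Such letters describe the sequence and show no binding.

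More of the endothelial genes were lower than higher in Ethanol animals. Of the 35, 10 were lower (Eng, Erg, Tie1, Cdh5, Tek, Clec14a, Aplnr, Pecam1, Kdr and Lef1), 2 were higher (Ly6c1 and Vwf) and 23 did not pass the test. Over all genes tested, 5.80% were lower and 9.07% higher. The 35 genes were chosen with earlier results of these data known, so an excess over these shares is not independent evidence. The median log2 fold change of the 35 was -0.14, against -0.01 over all genes, and 27 of the 35 lay below 0. The changes were small: among the 10 lower genes the log2 fold change was between -0.36 and -0.16. In bulk tissue, fewer endothelial cells and less RNA per endothelial cell cannot be told apart. Without X4568 and X4569, 2 genes were higher and 9 lower: Aplnr and Lef1 no longer passed and Prnd did. For no gene of the 35 were the 2 groups fully apart. The share of all genes tested with groups fully apart was not computed, so this describes the 35 genes only.

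**Figure D2:**
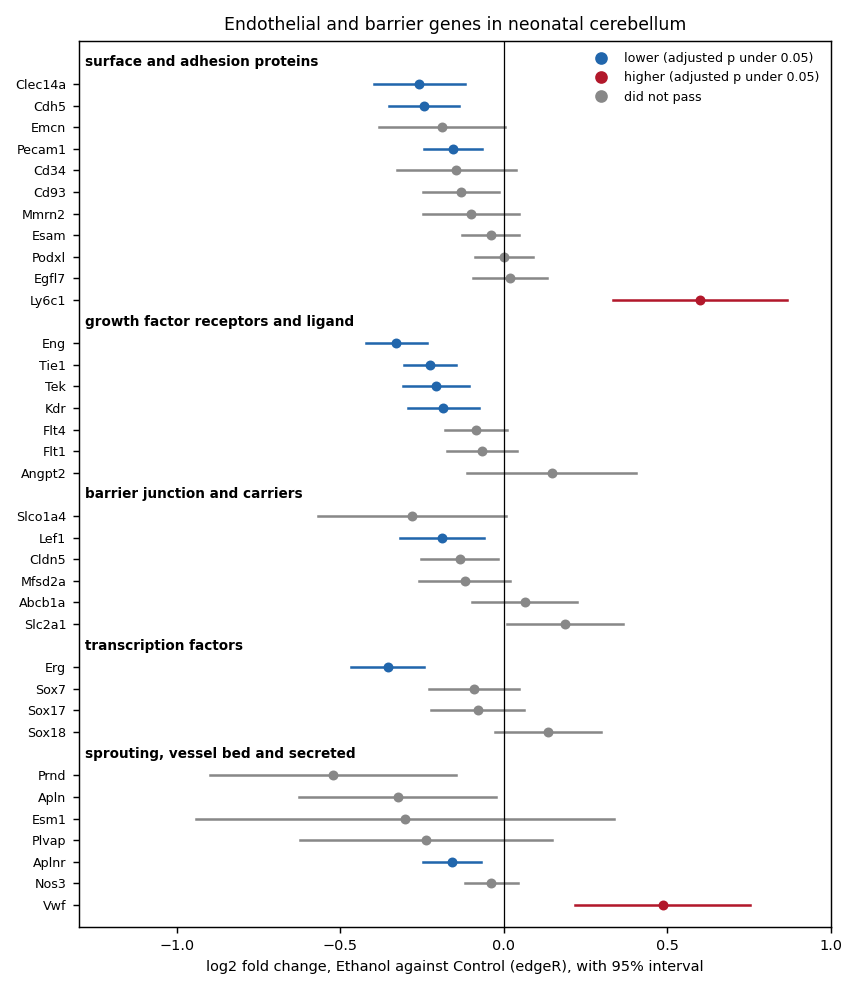
Log2 fold change of Ethanol against Control (horizontal axis) with its 95% interval for each of the 35 genes, grouped by role. Blue marks the 10 genes that were lower and red the 2 that were higher at an adjusted p under 0.05, and grey the 23 that did not pass.

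Of 6 receptors for vascular growth factors, 4 were lower and 2 did not pass. With the ligand Angpt2, which did not pass, the median of the group was -0.18. Eng encodes endoglin, the endothelial co-receptor for bone morphogenetic proteins and transforming growth factor beta. Its level was between 49.9 and 64.4 CPM (median 59.1) in Control animals and between 38.6 and 55.0 CPM (median 46.2) in Ethanol animals. All 12 Ethanol animals lay below the Control median and 10 below the lowest Control animal. The mean fell from 58.3 ± 4.25 to 46.4 ± 4.22 CPM (SD, n = 12 each). In edgeR the log2 fold change of Eng was -0.33 (SE 0.05, adjusted p = 4.28e-05). X4568 and X4569 had the lowest Eng levels, 38.6 and 41.4 CPM. Without them the log2 fold change was -0.28 (adjusted p = 0.000182, edgeR).

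Tie1 and Tek are the TIE receptor kinases, Tek (TIE2) being the receptor of the angiopoietins and Tie1 its partner. Tie1 was between 43.5 and 51.4 CPM (median 47.5) in Control animals and between 34.8 and 44.0 CPM (median 40.9) in Ethanol animals, with 11 of the 12 below the lowest Control animal. Its log2 fold change was -0.23 (SE 0.04, adjusted p = 0.000258, edgeR), and X4569 was the highest of the Ethanol animals, so that this gene did not follow the animals that were lowest in Eng. Tek was between 26.5 and 30.9 CPM (median 28.3) against 20.3 to 28.6 CPM (median 24.5), overlapping over 4 Ethanol animals, and differed by -0.21 (SE 0.05, adjusted p = 0.00509). Kdr, the main signalling receptor for VEGF, was between 80.2 and 96.7 CPM (median 86.9) in Control animals and between 59.0 and 87.5 CPM (median 79.4) in Ethanol animals. Its difference of -0.18 (SE 0.05, adjusted p = 0.0178) leaned on the first run: X4568 and X4569 had 59.0 and 64.1 CPM, and without them the difference was -0.12 (adjusted p = 0.0411). It did not pass without the whole first run (-0.11, adjusted p = 0.0948), nor without the third or the sixth (adjusted p = 0.0575 and 0.0501). The remaining VEGF receptors, the decoy receptor Flt1 and the lymphatic receptor Flt4, did not pass, at -0.07 (95% interval -0.17 to 0.04) and -0.09 (-0.18 to 0.01). Angpt2, the angiopoietin that destabilizes vessels, did not pass either, at 0.15 with a wide interval of -0.11 to 0.40.

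Among 11 surface and adhesion proteins, 3 were lower, 1 was higher and 7 did not pass. Cdh5 encodes VE-cadherin, the adherens junction protein found in all endothelial cells. Its level was between 61.7 and 79.1 CPM (median 76.1) in Control animals and between 53.9 and 73.0 CPM (median 60.6) in Ethanol animals. All 12 Ethanol animals were below the Control median, though 5 of them lay within the Control range, and the log2 fold change was -0.24 (SE 0.05, adjusted p = 0.00206, edgeR). Clec14a, a lectin-like receptor of growing vessels, was between 18.8 and 26.3 CPM (median 20.8) against 14.1 to 21.6 CPM (median 16.8), a difference of -0.26 (SE 0.07, adjusted p = 0.0103) that missed the threshold without the third or the fourth run (adjusted p = 0.0512 and 0.0583). Pecam1, the general endothelial adhesion protein CD31, was between 36.5 and 42.9 CPM (median 41.2) in Control animals and 32.0 to 46.1 CPM (median 36.2) in Ethanol animals, a difference of -0.16 (SE 0.04, adjusted p = 0.0152). The Ethanol group spanned more than the Control group at both ends, since X4760 had the highest Pecam1 of all 24 animals. Pecam1 did not pass without any 1 of the first 4 runs (adjusted p between 0.0584 and 0.119).

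Ly6c1, a surface antigen of brain capillary endothelium, went the other way. It was between 3.49 and 5.30 CPM (median 4.31) in Control animals and between 4.57 and 11.4 CPM (median 5.63) in Ethanol animals, all 12 of which lay above the Control median and 7 above the highest Control animal. The log2 fold change was 0.60 (SE 0.13, adjusted p = 0.00258, edgeR), and 0.42 without X4568 and X4569 (adjusted p = 0.00471), whose levels were 9.46 and 11.4 CPM. Ly6c1 is among the low genes here, with 119 to 396 counts per library, and its near-identical neighbour Ly6c2 shares sequence with it, so the split of reads between them is uncertain. Of the 7 surface genes that did not pass, the sialomucins Cd34 and Emcn were at -0.15 (95% interval -0.33 to 0.04) and -0.19 (-0.38 to 0.00), the C1q-receptor-like protein Cd93 at -0.13 (-0.25 to -0.01) and its ligand Mmrn2 at -0.10 (-0.25 to 0.05). Cd93 passed when X4758 or X4760, its highest Ethanol animals, was left out (adjusted p = 0.0384 and 0.0162), and without the fifth run (-0.21, adjusted p = 0.00239). Esam, an adhesion protein of tight junctions, was at -0.04 (-0.13 to 0.05). Podxl, a sialomucin of the cell surface, was at 0.00 (-0.09 to 0.09), and Egfl7, a secreted matrix protein of endothelium, at 0.02 (-0.09 to 0.13), so that changes of the size seen in Eng lay outside the intervals of all 3.

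None of the 5 junction and carrier genes of the barrier passed edgeR's test with all animals and no block or covariate (3 of the 6 genes of this group, Lef1 included, had an unadjusted p under 0.05). The gene of the group that was lower encodes a transcription factor. Lef1, a nuclear effector of Wnt signalling, was between 8.14 and 12.5 CPM (median 9.63) in Control animals and between 7.55 and 10.9 CPM (median 8.19) in Ethanol animals, with 7 of the 12 Ethanol animals inside the Control range. Its difference of -0.19 (SE 0.06, adjusted p = 0.0424, edgeR) was near the threshold and did not pass without X4568 and X4569 (adjusted p = 0.106), nor without any of 15 single animals taken out in turn. Cldn5 was between 75.6 and 95.4 CPM (median 86.0) in Control animals and between 63.8 and 101 CPM (median 79.6) in Ethanol animals, with X4673 above every Control animal and 5 Ethanol animals below every Control animal. It did not pass, at -0.14 (SE 0.06, 95% interval -0.25 to -0.02, adjusted p = 0.115). With the runs as a block the same gene passed at -0.14 (adjusted p = 0.0356, edgeR). It also passed without X4673 (adjusted p = 0.0153, edgeR) and without the second run, which holds X4673 (adjusted p = 0.0393).

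The carriers spread in both directions. Slco1a4, an organic anion carrier of brain endothelium, was at -0.28 (95% interval -0.57 to 0.01, adjusted p = 0.187). Its lowest level in Control animals, 6.82 CPM in X4761, and in Ethanol animals, 5.56 CPM in X4568, came from libraries low in Ttr, and with choroid plexus content as a covariate it passed, at -0.21 (adjusted p = 0.0437). Mfsd2a, the endothelial carrier of lysophospholipids that also holds back vesicle transport, was at -0.12 (-0.26 to 0.02). The efflux pump Abcb1a (P-glycoprotein) was at 0.06 (-0.10 to 0.22) and the glucose carrier Slc2a1 at 0.19 (0.01 to 0.36), with adjusted p-values of 0.65 and 0.153. Slc2a1 was between 48.7 and 65.0 CPM in Control animals and between 53.0 and 95.4 CPM in Ethanol animals, the top values of 86.2 and 95.4 CPM belonging to X4568 and X4569. Without this pair the Slc2a1 difference was 0.07 (adjusted p = 0.455), that of Mfsd2a -0.04 (adjusted p = 0.676) and that of Abcb1a -0.02 (adjusted p = 0.907).

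Of 4 transcription factors, 1 was lower and 3 did not pass. Erg is an ETS factor that maintains endothelial identity, and it had the most negative fold change of the genes that passed. Its level was between 10.6 and 13.6 CPM (median 12) in Control animals and between 7.94 and 11.7 CPM (median 9.49) in Ethanol animals. Of the Ethanol animals, 11 lay below the lowest Control animal, and X4683 alone was inside the Control range. The mean fell from 12.1 ± 1.02 to 9.49 ± 0.922 CPM. The difference was -0.36 on the log2 scale (SE 0.05, adjusted p = 8.62e-05, edgeR), and -0.35 without X4568 and X4569 (adjusted p = 0.000416). The SOXF factors, which act in arterial identity and sprouting, did not pass: Sox7 was at -0.09 (95% interval -0.23 to 0.05), Sox17 at -0.08 (-0.22 to 0.06) and Sox18 at 0.13 (-0.03 to 0.30).

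The last 7 genes mark sprouts or vessel beds or act outside the cell, and 1 was higher, 1 lower and 5 did not pass. Vwf encodes von Willebrand factor, the platelet-binding glycoprotein stored by endothelium. It was between 35 and 56.6 CPM (median 40.4) in Control animals and between 42.5 and 93.0 CPM (median 53.2) in Ethanol animals. All 12 Ethanol animals lay above the Control median and 5 above the highest Control animal, the top 3 being X4760, X4569 and X4568 at 93.0, 84.9 and 79.5 CPM. The log2 fold change was 0.49 (SE 0.13, adjusted p = 0.0134, edgeR) with all animals and 0.38 (adjusted p = 0.0463) without X4568 and X4569. Without the whole first run it was 0.33 and did not pass (adjusted p = 0.105). Aplnr, the apelin receptor of sprouting and venous endothelium, was between 66.4 and 83.6 CPM (median 75.6) in Control animals and between 61.0 and 76.7 CPM (median 67.4) in Ethanol animals, a difference of -0.16 (SE 0.04, adjusted p = 0.0133). It did not pass without X4568 and X4569 (-0.13, adjusted p = 0.0568), nor without the first, the fourth or the fifth run (adjusted p = 0.12, 0.0514 and 0.0595).

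Prnd encodes doppel, a relative of the prion protein that brain endothelium makes around birth. It had the most negative fold change of the 35, -0.52 (SE 0.18, 95% interval -0.90 to -0.15), and missed the threshold (adjusted p = 0.0541, edgeR). With the runs as a block it passed, at -0.61 (adjusted p = 0.0183). Control animals were between 17.3 and 24.9 CPM (median 22) and Ethanol animals between 4.73 and 25.6 CPM (median 16.1). X4568 and X4569 had 6.25 and 4.73 CPM, and the other 10 Ethanol animals 12.3 to 25.6 CPM. Without that pair the difference was smaller, -0.34, and passed (adjusted p = 0.0189). Apln, the apelin ligand made by tip cells, was at -0.32 (95% interval -0.63 to -0.02, adjusted p = 0.14) and showed the same pair lowest, at 7.5 and 6.52 CPM against 12.1 to 22 CPM in the other Ethanol animals. Without them the difference of Apln was -0.18 (adjusted p = 0.246) and that of Cd34, also lowest in this pair, -0.05 (adjusted p = 0.683). Leaving out the Ethanol animals that were highest worked the other way: Apln passed without X4758 (-0.41, adjusted p = 0.0497), and Cd34 passed without the fifth run (-0.26, adjusted p = 0.0215). Esm1, a secreted product of tip cells, was at -0.30 (-0.94 to 0.34) on 6 to 81 counts per library, and Plvap, the diaphragm protein of fenestrated vessels such as those of the choroid plexus, at -0.24 (-0.62 to 0.15). In both genes the lowest Control animal was X4761 and the lowest Ethanol animal X4568, libraries low in Ttr. Nos3, the endothelial nitric oxide synthase, was at -0.04 (-0.12 to 0.04).

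**Figure D3:**
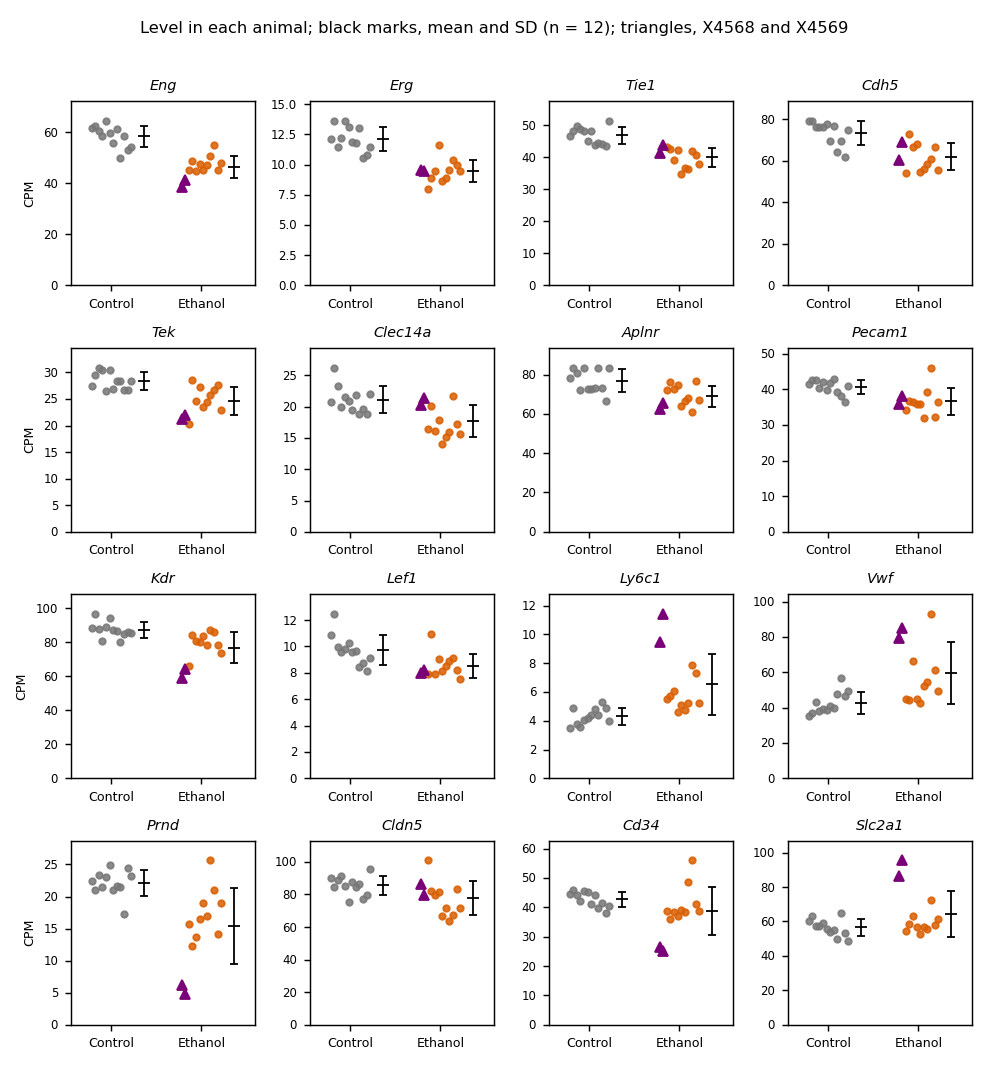
Level in CPM of 16 genes in each of the 24 animals, Control in grey and Ethanol in orange, with the mean and SD (n = 12) in black and X4568 and X4569 as purple triangles. The first 10 panels are the lower genes, followed by Ly6c1 and Vwf and by 4 genes that did not pass. The triangles lie at the bottom for Prnd and Cd34 and at the top for Ly6c1 and Slc2a1, but inside the Ethanol range for Erg, Cdh5 and Pecam1.

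Ethanol animals differed more among themselves than Control animals did in most of these genes. The coefficient of variation was larger in the Ethanol group for 28 of the 35 genes (80%), against 62.6% of all genes tested. Without X4568 and X4569 it was larger for 24 (68.6%, against 62.3%). In Prnd it was 38.0% in Ethanol animals and 8.99% in Control animals, and in Cd34 it was 21.3% and 6.06%. Erg and Tie1 varied little in both groups, between 5.62% and 9.72%.

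**Figure D4:**
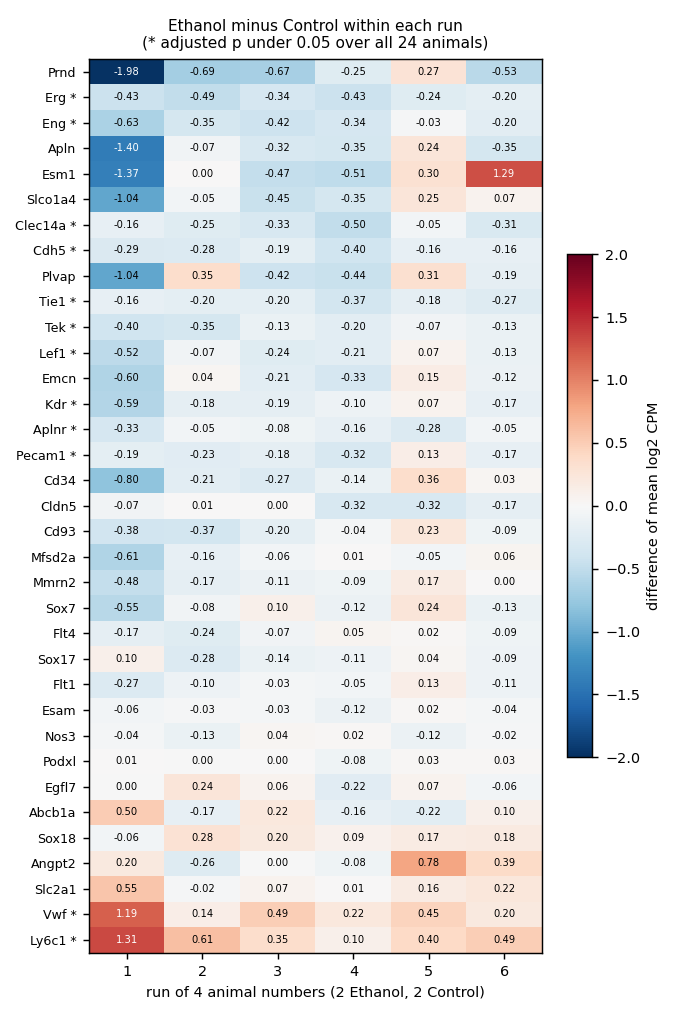
Difference of mean log2 CPM, Ethanol minus Control, within each of the 6 runs of animal numbers (columns) for the 35 genes (rows, ordered by the fold change over all animals). An asterisk marks the 12 genes that passed over all animals, the same animals as in the runs, so their signs are no separate evidence. Erg, Eng, Clec14a, Cdh5, Tie1, Tek and Aplnr are below 0 in all 6 runs, Vwf and Ly6c1 above 0 in all 6, and the first column holds the lowest value of Prnd (-1.98) and the highest of Ly6c1 (1.31).

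Within the runs, 7 of the 10 lower genes (Cdh5, Clec14a, Tie1, Tek, Eng, Erg and Aplnr) were lower in the Ethanol pair in 6 of 6, while Pecam1, Kdr and Lef1 were lower in 5 and reversed in the fifth. Ly6c1 and Vwf were higher in 6 of 6. The sizes were uneven. The within-run difference of Ly6c1 was between 0.10 and 1.31 and that of Vwf between 0.14 and 1.19, both largest in the first run. In that run Prnd was at -1.98, Apln at -1.40, Esm1 at -1.37, Slco1a4 and Plvap at -1.04 and Cd34 at -0.80. Esm1 was at 1.29 in the sixth run. In Plvap X4568 had 2.96 CPM and X4569 6.95 CPM. Cdh5 (-0.40 to -0.16) and Tie1 (-0.37 to -0.16) had the narrowest ranges among the 10 lower genes. In the fifth run Cd34 and Cd93 were higher in the Ethanol pair, by 0.36 and 0.23. Each run holds 2 animals a group, so these are values with no test. The lower and higher genes were called over these same animals, so a shared direction across the runs is no separate evidence. How many of all genes tested kept their direction in 6 of 6 runs was not counted. With the runs as a block, 2 genes were higher and 12 lower, the added genes being Cldn5 and Prnd. Without the first run, 1 was higher (Ly6c1) and 7 were lower (Cdh5, Clec14a, Eng, Erg, Prnd, Tek and Tie1).

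In a list of 48 further endothelial genes, 9 were lower, 3 higher and 36 did not pass, with a median of -0.07. Over all genes tested, 5.80% were lower and 9.07% higher, so the higher genes were no larger a share than over all genes. The list was chosen with earlier results of these data known, so its larger share of lower genes is not independent evidence. Robo4, an endothelial guidance receptor, was at -0.27 (adjusted p = 0.000102), the adaptor She at -0.30 (adjusted p = 0.000906), the adhesion receptor Adgrf5 at -0.21 (adjusted p = 0.00536) and the basement membrane collagen Col4a1 at -0.16 (adjusted p = 0.00636). The higher genes were the flow-responsive factor Klf2 at 0.35 (adjusted p = 0.0108), the blood and endothelial factor Tal1 at 0.29 (adjusted p = 0.011) and Ly6a, a relative of Ly6c1, at 0.85 (adjusted p = 0.0138), all by edgeR.

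The pathways around the receptors are set beside the 5.80% lower and 9.07% higher over all genes tested, and a list with a share near these shows nothing of its own. The lists were chosen with earlier results of these data known, so a larger share is not independent evidence either. Among 20 genes of endothelial Wnt signalling besides Lef1 and Sox17, 6 were lower and 1 higher: the transcription factor Tcf7 was at -0.30 (adjusted p = 0.000412), the inhibitor Apcdd1 at -0.18 (adjusted p = 0.000983), the Wnt7 co-receptor Reck at -0.21 (adjusted p = 0.00447) and Tcf7l1 at -0.17 (adjusted p = 0.0136), while the feedback gene Axin2 was higher at 0.16 (adjusted p = 0.00583). These genes are also made by other cells of the cerebellum. Of 19 genes of the endoglin and bone morphogenetic protein pathway, 5 were higher and 14 did not pass, while Eng itself was lower. Bmp4 was at 0.41, Bmp2 at 0.51, the target Id3 at 0.37, Smad5 at 0.08 and, named after its value was seen, Bmper at 0.28. Of 11 VEGF and angiopoietin ligands and co-receptors, Angpt1, the ligand of Tek, was higher at 0.18 (adjusted p = 0.0238), Pgf higher at 0.25 (adjusted p = 0.0405) and Vegfd lower at -0.61 (adjusted p = 0.0111). Vegfd had only 9 to 37 counts per library. In the Notch list 1 of 13 passed, the ligand Jag1 at 0.15 (adjusted p = 0.0243).

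Cavin2, a coat protein of caveolae, was lower at -0.28 (adjusted p = 0.0277). Of 20 further barrier carriers 3 were lower, the iron exporter Slc40a1 at -0.39 (adjusted p = 0.000235), the thiamine carrier Slc19a3 at -0.46 (adjusted p = 0.0037) and the organic anion carrier Slc22a8 at -0.22 (adjusted p = 0.0298), and 2 were higher, Slc3a2 at 0.14 (adjusted p = 0.00323) and Abcb1b at 0.22 (adjusted p = 0.0383). Of 15 tested genes that inflamed endothelium switches on, 6 were higher and 9 did not pass, with 14 of the 15 above 0. The urokinase receptor Plaur was at 0.66 (adjusted p = 0.000935), the prostaglandin synthase Ptgs2 at 1.66 (adjusted p = 0.00752), the interleukin receptor Il1r1 at 0.87 (adjusted p = 0.0159) and Ch25h at 1.07 (adjusted p = 0.0181). Glia and macrophages also make these. Counts of Ptgs2 and Ch25h were near the floor, at 4 to 147 and 0 to 34 per library, so their fold changes are uncertain. Of 20 hypoxia genes, 2 were higher by small amounts, Ddit4 at 0.18 and Arnt at 0.08, and 18 did not pass, a share near that over all genes. The same holds for the Notch list and for the higher carriers.

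Markers of other cells were read beside these results. Choroid plexus content was entered as a covariate, which left 2 of the 35 genes higher and 11 lower, and the part of the other lists was not tested. Among 12 pericyte markers 2 were lower, Rgs5 at -0.23 (adjusted p = 7.27e-05) and Notch3 at -0.14 (adjusted p = 0.0147). The other 10 did not pass, and 4 of the 12 lay above 0. The summed level of the 12 was between 1506 and 1831 CPM (median 1631) in Control animals. In Ethanol animals it was between 1358 and 1846 CPM (median 1646). Of 5 smooth muscle markers 2 were lower (Myl9 at -0.34, Acta2 at -0.33), with sums of 26.4 to 40.8 CPM in Control and 22.1 to 36.6 CPM in Ethanol animals. Of 10 fibroblast and meningeal markers 3 were lower (Lum at -0.65, Col3a1 at -0.33, Col1a1 at -0.32), with sums of 1086 to 1735 CPM and 1021 to 1551 CPM. Border macrophage markers were higher in 4 of 6 (Cbr2 at 0.79, Cd163 at 0.53), with sums of 35.5 to 54.9 CPM in Control and 39.2 to 90.5 CPM in Ethanol animals, the top value belonging to X4569. Microglia markers were higher in 4 and lower in 1 of 10 (C1qb at 0.55, P2ry12 at -0.53), with sums of 188 to 271 CPM and 219 to 337 CPM, and astrocyte markers higher in 3 of 6 (Gfap at 0.99), with sums of 2595 to 3201 CPM and 2890 to 3455 CPM. Red cell markers, a sign of blood left in the vessels, were lower in 1 of 6 (Slc4a1 at -1.12), and all 6 lay below 0 (median -0.67). Their sums were 63.4 to 252 CPM (median 125) in Control and 23.8 to 294 CPM (median 66.2) in Ethanol animals. Slc4a1 had only 4 to 68 counts per library. The 14 choroid plexus markers did not pass (Ttr at -0.27, SE 0.88), with sums of 126 to 6087 CPM and 139 to 6082 CPM, and in 8 granule cell markers 1 was higher (Atoh1 at 0.20) and 1 lower (Barhl1 at -0.18), with sums of 1467 to 1902 CPM and 1504 to 1871 CPM. No list of markers was wholly at 0.

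A mean over 5 general endothelial genes (Pecam1, Cdh5, Tie1, Esam and Cldn5) was 5.70 ± 0.07 log2 CPM in Control animals and 5.53 ± 0.09 in Ethanol animals, a difference of -0.16. All 12 Ethanol animals lay below the Control median and 6 below the lowest Control animal. With this mean as a covariate, 5 of the remaining 30 genes were lower (Eng at -0.31, Erg at -0.27, Kdr at -0.24, Apln at -0.70 and Prnd at -0.87) and 3 higher (Ly6c1 at 0.79, Vwf at 0.60 and Egfl7 at 0.26), and 4 genes that were lower without the covariate did not pass: Tek at -0.16 (adjusted p = 0.155), Clec14a at 0.015 (adjusted p = 0.923), Aplnr at -0.05 (adjusted p = 0.663) and Lef1 at -0.05 (adjusted p = 0.774). The covariate itself differed between the groups, since 3 of its 5 genes were lower in Ethanol animals.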

How the data were processed

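The authors trimmed, aligned and quantified the reads with nf-core/rnaseq (version 3.4), with STAR and Salmon against GRCm39 per the labels, and deposited an estimated count per gene and animal. Of these values, 10.9% were not whole numbers, and they were rounded before testing. No source used here gives the strand setting or the annotation release, so reads of overlapping antisense genes may be mixed in. The paper's methods and the labels name different homogenizers and RNA kits. The authors' own test was limma. Here, genes were kept by edgeR's expression filter (17736 of 55416 rows), given TMM factors (0.982 to 1.01), and compared between treatments over all 24 libraries by edgeR's quasi-likelihood test (edgeR 4.0.16, R 4.3.3, robust estimation). The script was tested on simulated data. Levels per kilobase used merged exons of GENCODE M21, which covered 35 of 35 genes.

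The 35 genes and the 18 other lists were chosen with earlier results of these data known. All 35 genes were to be named. From each other list, up to 4 genes with the smallest p were named in each direction among those that passed. Pups were treated as independent, although by the methods each litter gave several of them and the labels do not name the litters. Alternatives covered the test, scaling, filter, robust estimation, runs as a block, surrogate variables, endothelial or choroid plexus content as a covariate, and leaving out libraries, animals or runs. The alternative without X4568 and X4569 was chosen after seeing the data. The result of the tight junction and caveolae list as a whole is not reported here.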

Additional observations from a re-analysis of the deposited data

How the results depend on the processing

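Over the other tests (limma-trend, limma-voom, DESeq2), scalings, filters, covariates and left-out animals or runs, the 35 genes gave 2 higher and 10 lower genes as reported, and 1 to 3 higher and 5 to 13 lower otherwise. Eng and Erg passed as lower and Ly6c1 as higher in 44 of 44 alternatives, and Tie1 and Cdh5 in the 43 that gave them a value. Tek passed in 43 of 44, Vwf in 43, Clec14a and Kdr in 41, Aplnr in 38, Pecam1 in 38 of 43 and Lef1 in 21 of 44. Prnd, which did not pass in the reported fit, passed in 16 of 44. With endothelial content as a covariate, 5 genes were lower, and Clec14a turned to 0.015 (adjusted p = 0.923). Without the 4 libraries low in Ttr, 7 were lower, with Pecam1 (adjusted p = 0.0592), Aplnr (0.134) and Lef1 (0.0832) lost. When single animals or runs were left out, 1 to 2 genes were higher and 6 to 13 lower, the fewest without run 3 or run 4. Among the 48 further endothelial genes, 5 were higher under DESeq2 and with runs as a block, and 3 were lower with the endothelial covariate, while leaving out animals or runs gave 2 to 5 higher and 4 to 13 lower.

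Over all genes, 1028 were lower in the reported fit, 662 with no filter, 612 without the libraries low in Ttr, 681 without X4568 and X4569, and 616, 612 and 499 without runs 1, 3 and 4 in turn. Other settings raised the count, to 1501 with 3 surrogate variables, 1438 without X4673, 1396 with upper-quartile scaling and 1363 with runs as a block. Upper-quartile scaling moved the share of higher calls among all calls from 61.0% to 49.6%, the median of all genes to -0.02, and the counts for the 35 genes to 2 higher and 11 lower. Among the 35 genes, low counts limit Esm1, with 6 to 81 per library, more than the others. Its lowest counts, 6 in X4761, 7 in X4770 and 14 in X4568, came from libraries low in Ttr. Those libraries were not the ones with the lowest totals. Age and sex were not fitted, since the labels do not give them.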
